A study of Mus musculus with 20 samples.

Results

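The Kruppel-like factors are zinc finger transcription factors, and 9 of their genes were followed here in a mouse breast cancer (BC) model: Klf2, Klf3, Klf4, Klf5, Klf6, Klf7, Klf9, Klf10 and Klf13. They were taken as the rows of the deposited table that carried these symbols and held values in the 8 BC columns, which was all 9 of them, among 15465 named genes with such values. The BC mice bore tumours derived from 4T1, an established mouse mammary carcinoma line, in an orthotopic model, and tissue was taken at 28 days. The 2 groups were primary tumours of 4 mice and lung metastases of the same 4 mice, numbered 1 to 4, all of the 4T1-derived genotype with no further allele or agent in the labels. All tumours therefore go back to 1 cell line. A pancreatic model of 12 further libraries was not used, because its columns were not aligned with the gene names.

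Kruppel-like factors bind CACCC and GC-rich boxes in gene control regions through zinc fingers at the end of the protein, and differ in the stretches outside the fingers that recruit activators or repressors. KLF2 and KLF4 are known from vessel lining, where blood flow induces them through the MEKK3, ERK5 and MEF2 pathway and they keep the endothelium quiescent, and KLF2 also governs lymphocyte trafficking. KLF4 and KLF5 act with opposed effects in epithelia, KLF6 and KLF10 respond to injury and to TGF-beta, and KLF9, KLF13 and KLF15 are known from hormone and metabolic responses.

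RNA of whole tissue was sequenced. The reads recovered for the named genes were 15447918 to 28995834 per BC library, the lowest in lung metastasis 3. Reads outside these genes are not in that number. On the deposited scale 1 read was worth 0.0337 to 0.0676. Values below are normalised read counts, that is reads per 1000000 of a scaled library, and log2 changes are lung metastasis minus primary tumour on the log2(value + 1) scale. The threshold for a call was an adjusted p of 0.05 from limma, by the Benjamini-Hochberg method over the 14003 genes tested. Lung metastasis 3 stood apart: it was the highest of the 8 libraries for 30.9% of all genes tested, and its array weight was 0.154 against 0.602 to 2.31 in the others. Results that rest on it are given with and without it. In bulk tissue, fewer cells of a type and less RNA per cell cannot be told apart.

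The promoters of the 3 family genes that passed the test in lung metastases, the members Klf2 and Klf4 and their relative Klf15, are shown because the transcripts of all 3 were higher there. The sequences are those of RefSeq on GRCm38.p6, another build than the mm9 of the deposited values, and run from 250 bases before to 50 bases after the annotated start. They lie at chr8:72318812-72319111 (plus strand) for Klf2, chr4:55532426-55532725 (minus strand) for Klf4 and chr6:90462326-90462625 (plus strand) for Klf15. Capitals mark the Kruppel-like factor box CACCC, the GC box written as GGGCGG, the CCAAT box, the E-box written as CACGTG and the MEF2 consensus, each read on both strands.
Klf2: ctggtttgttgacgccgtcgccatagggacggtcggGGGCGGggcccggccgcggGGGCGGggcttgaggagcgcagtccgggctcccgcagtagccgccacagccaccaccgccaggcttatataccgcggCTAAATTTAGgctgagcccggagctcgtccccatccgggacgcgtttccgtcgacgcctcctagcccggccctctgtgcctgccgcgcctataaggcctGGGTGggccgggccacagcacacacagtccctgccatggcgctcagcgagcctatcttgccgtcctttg
Klf4: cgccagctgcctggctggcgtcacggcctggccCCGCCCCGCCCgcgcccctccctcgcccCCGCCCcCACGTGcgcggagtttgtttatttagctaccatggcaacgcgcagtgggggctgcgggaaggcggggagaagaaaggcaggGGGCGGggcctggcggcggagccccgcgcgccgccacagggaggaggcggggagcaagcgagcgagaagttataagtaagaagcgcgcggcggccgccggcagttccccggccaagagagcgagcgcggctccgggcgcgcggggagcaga
Klf15: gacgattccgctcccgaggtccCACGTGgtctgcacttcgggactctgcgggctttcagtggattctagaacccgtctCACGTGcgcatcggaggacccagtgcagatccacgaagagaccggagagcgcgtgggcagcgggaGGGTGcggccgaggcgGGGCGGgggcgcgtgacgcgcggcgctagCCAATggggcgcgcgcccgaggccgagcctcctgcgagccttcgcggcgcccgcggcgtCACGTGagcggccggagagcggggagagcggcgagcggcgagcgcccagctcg
The Klf2 window held 1 match to the MEF2 consensus, CTAAATTTAG, whose first base lies 118 bases before the start, and 0.557% of 32851 mouse promoter windows of this length held such a match. It also held 1 CACCC box and 2 GC boxes. The Klf4 window held 4 GC boxes, of which 2 share a base, and 1 E-box. The Klf15 window held 3 E-boxes, a motif found in 7.15% of windows, with 1 box of each of the other 3 kinds and no MEF2 match. The GC box stood in 35.7%, the CACCC box in 57.5% and the CCAAT box in 37.4% of all windows. Searches for TGACGTCA (1.79% of windows), TATAAA (13.6%) and the serum response CArG box (1.63%) found no match in these 3 windows. Promoter windows were matched for 7 of the 9 members, and among these the MEF2 match was in Klf2 alone. Matches are letters in a window, and no binding was measured.

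Klf2 and Klf4 rose in lung metastases, and no member was called lower. Of the 9 members 2 were called higher and 0 lower, where 7.18% of all genes tested were called higher and 1.96% lower. Klf2 and Klf4 were also called by edgeR (6.02% of genes higher), by DESeq2 (10.5%), with array weights (11.0%) and in a fit blocked on the mouse (6.68%). At an unadjusted p under 0.05 with limma, 4 members were higher (Klf2, Klf4, Klf6 and Klf7) and 0 lower, beside 13.9% and 9.16% of all genes. The 9 changes had a median of 0.65, beside -0.06 over all genes tested, and 8 of the 9 were positive, beside 45.1% of all genes. Without lung metastasis 3 the medians were 0.38 and -0.02. The members were chosen with earlier results of these data known, so these contrasts with all genes are descriptions. The groups did not overlap for 4 members, all higher in lung metastases (Klf2, Klf4, Klf6 and Klf7), where 10.4% of all genes were higher without overlap. In all 4 mice the metastasis was the higher for 5 members (these and Klf5), beside 16.6% of all genes. Counts of members without lung metastasis 3 were 3 higher and 0 lower, with Klf6 as the additional gene, beside 8.0% of genes called higher there. Without both libraries of mouse 3 they were 2 and 0, beside 6.69%.

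**Figure D1:**
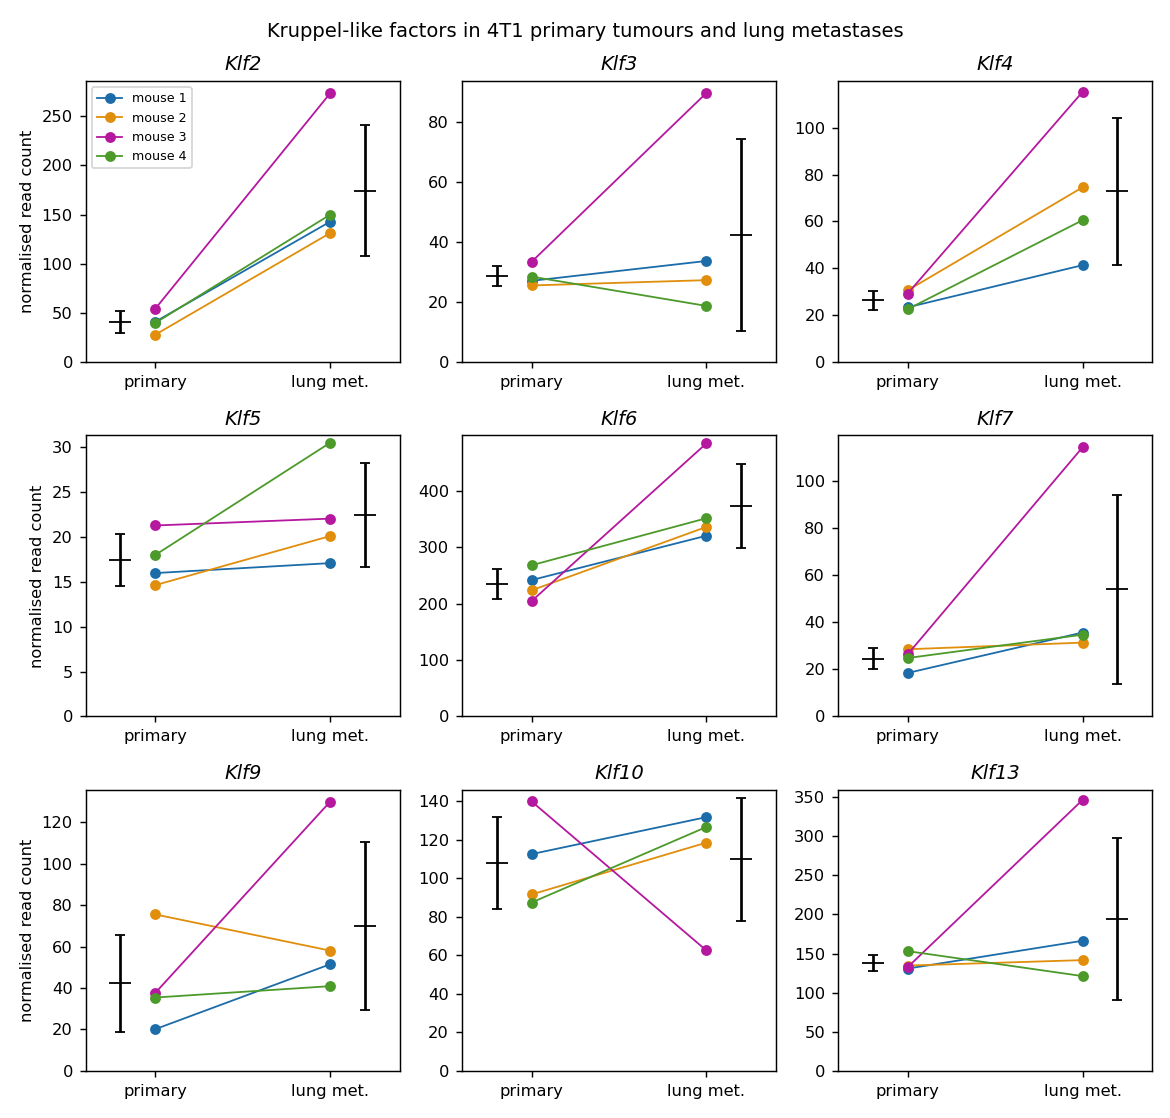
Normalised read counts of the 9 Kruppel-like factors (vertical axes from 0, each panel on its own scale) in 4T1 primary tumours and lung metastases, with a line joining the 2 libraries of a mouse and the mean ± SD of 4 libraries beside each group. Klf2 and Klf4 are higher in the metastasis of all 4 mice, and mouse 3 has the highest metastasis value of 7 of the 9 genes and the lowest of Klf10.

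Klf2, the flow-induced factor of endothelium that also sets lymphocyte homing, had the clearest change. It stood at 41.0, 27.8, 54.4 and 39.8 in the primary tumours of mice 1 to 4, and at 143, 131, 274 and 150 in their lung metastases. Every metastasis was above every primary tumour, and lung metastasis 3 lay far above the other 3. The means were 40.8 ± 10.9 and 174 ± 66.5 (SD, n = 4), a 4.28-fold ratio, and the log2 change was 2.04 (SE 0.268, 95% interval 1.45 to 2.64, limma adjusted p = 0.00102). Within mice the metastasis was 3.48-fold to 5.03-fold above the primary tumour. Without lung metastasis 3 the mean was 141 ± 9.42 and the change 1.80 (limma adjusted p = 0.000225). All 18 other settings of the processing, the 8 that leave out 1 library included, also called Klf2.

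Klf4, a factor of epithelial differentiation that endothelium and myeloid cells also use, rose less. Its values were 23.3, 30.6, 29.2 and 22.5 in primary tumours 1 to 4 and 41.3, 74.5, 115 and 60.5 in lung metastases 1 to 4. The groups did not overlap, and the highest value was again in lung metastasis 3. The means were 26.4 ± 4.06 and 72.9 ± 31.4 (SD, n = 4), a 2.76-fold ratio with a log2 change of 1.35 (SE 0.284, 95% interval 0.72 to 1.98, limma adjusted p = 0.0141). The metastasis exceeded the primary tumour by 1.77-fold to 3.95-fold within mice. Without lung metastasis 3 the mean was 58.8 ± 16.7 and the change 1.10 (limma adjusted p = 0.00814). The call ended without primary tumour 4 (limma adjusted p = 0.0552, where the 18 other settings ranged from 0.000152 to 0.0552).

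Klf6, an injury-response factor with roles in vessels, epithelium and myeloid cells, had the highest normalised read count of the members, without correction for length. It stood at 242, 224, 205 and 268 in the primary tumours and at 321, 336, 485 and 352 in the lung metastases of mice 1 to 4. The metastases were all above the primary tumours, by 1.31-fold to 2.37-fold within mice. With means of 235 ± 27.1 and 373 ± 75.2 (SD, n = 4), the log2 change of 0.65 (SE 0.185, 95% interval 0.25 to 1.06) just missed the threshold (limma adjusted p = 0.0526). DESeq2 (adjusted p = 0.00672), limma with array weights (0.0248) and limma without lung metastasis 3 (0.0239) called it, and the other 15 settings did not (up to 0.165).

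Klf7, a factor known from neurons and adipocytes, had 1 library far above the rest. Its primary tumours held 18.5, 28.6, 26.4 and 24.8 and its lung metastases 35.7, 31.4, 114 and 34.7. The metastases exceeded all primary tumours, but 3 of the 4 did so by little, and lung metastasis 3 stood far above them. The log2 change was 0.90 (SE 0.376, 95% interval 0.06 to 1.73, limma adjusted p = 0.182), and 0.47 without that library (limma adjusted p = 0.16). The corresponding lung mean was 54.0 ± 40.3 with all 4 libraries and 33.9 ± 2.26 without it, against 24.6 ± 4.34 in primary tumours.

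Klf3, Klf9 and Klf13 showed the same dependence. Klf3, a repressor that recruits CtBP, stood at 25.5 to 33.4 in primary tumours and at 33.7, 27.3, 89.7 and 18.7 in lung metastases 1 to 4. Its log2 change was 0.30 (95% interval -0.57 to 1.18), and -0.13 without lung metastasis 3. Klf13, a repressor known from T cells and heart, stood at 131 to 153 in primary tumours and at 166, 142, 346 and 121 in lung metastases. The change of Klf13 was 0.37 (95% interval -0.27 to 1.00), and 0.04 without that library. Klf9, an early glucocorticoid-responsive gene, ranged from 20.2 to 75.5 in primary tumours, where tumour 2 was the highest, and from 40.9 to 130 in lung metastases. Its change was 0.72 (95% interval -0.20 to 1.65), and 0.38 without lung metastasis 3. All 3 had overlapping groups and did not pass the test with limma (adjusted p 0.681 for Klf3, 0.483 for Klf13 and 0.335 for Klf9). Exons of Klf3 and Klf7 overlap those of genes on the opposite strand in GENCODE M21, and counting by strand is not given in the sources used here, so their values could hold reads of those genes.

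Klf5 and Klf10 did not pass the test either, and neither interval excludes a change. Klf5, a factor of proliferating epithelium, stood at 16.0, 14.6, 21.3 and 18.0 in primary tumours and at 17.1, 20.1, 22.0 and 30.5 in lung metastases. Each metastasis was above the primary tumour of its mouse by 1.04-fold to 1.69-fold, with a log2 change of 0.33 (95% interval -0.20 to 0.85, limma adjusted p = 0.447). Klf5 was highest in lung metastasis 4, unlike the other members. Klf10, the TGF-beta inducible early gene, stood at 113, 91.6, 140 and 87.4 in primary tumours and at 132, 119, 62.5 and 127 in lung metastases. It was higher in the metastasis of mice 1, 2 and 4 and lower in that of mouse 3, where the metastasis was 0.447 times the primary tumour. Its log2 change was -0.01 (95% interval -0.58 to 0.56, limma adjusted p = 0.992), and 0.24 without lung metastasis 3 (limma adjusted p = 0.42).

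Per length, the order of the levels differed between the groups at its top. Normalised read counts were divided by the exon length of each gene in GENCODE M21, a later annotation than that of the mm9 build, so the order is approximate. In primary tumours Klf6 led at 53.5 ± 6.18 per kb (SD, n = 4), apart from Klf10 (25.8 ± 5.75), Klf2 (22.1 ± 5.88) and Klf13 (18.3 ± 1.37), whose neighbours in that order overlapped. Klf9 (8.77 ± 4.89) and Klf4 (8.66 ± 1.33) came next and overlapped. Klf5, Klf7 and Klf3 closed the order at 3.36, 3.02 and 2.54 per kb, with overlapping neighbours. In lung metastases Klf2 had the highest mean, at 94.4 ± 36.0 per kb, overlapping Klf6 at 85.0 ± 17.1, and both were apart from the rest. Klf10 (26.3 ± 7.66), Klf13 (25.7 ± 13.7), Klf4 (23.9 ± 10.3) and Klf9 (14.6 ± 8.43) followed, each overlapping the next. Klf7, Klf5 and Klf3 stood at 6.65, 4.31 and 3.77 per kb.

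**Figure D2:**
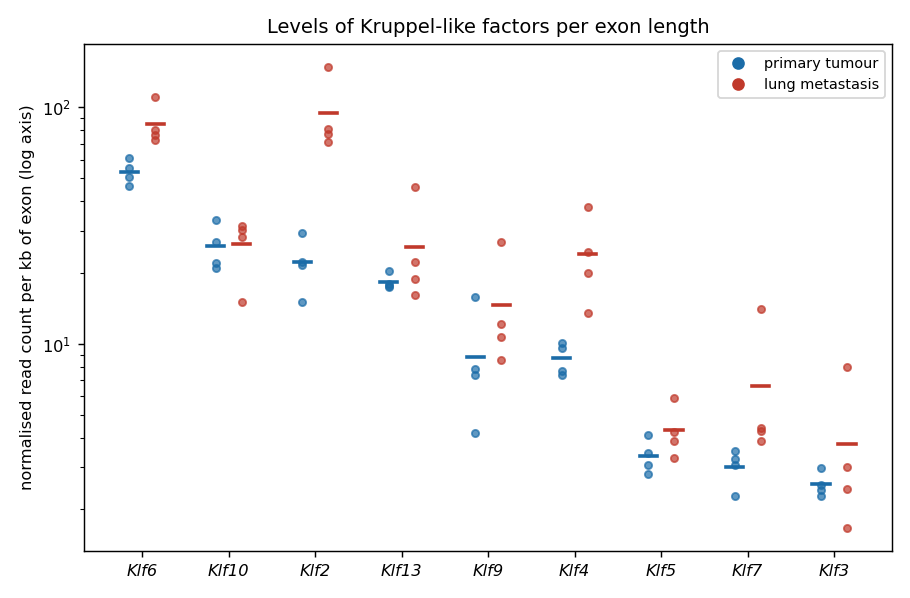
Normalised read count per kb of exon (log axis) of the 9 Kruppel-like factors in 4 primary tumours (blue) and 4 lung metastases (red), with 1 point per library and bars at the means. Klf6 leads in primary tumours at 53.5 per kb, and Klf2 stands beside it in lung metastases at 94.4 per kb.

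The 9 genes together took 0.0621% to 0.0695% of the reads of named genes in primary tumours and 0.0910% to 0.157% in lung metastases. Klf2 made up 4.27% to 8.00% of their summed normalised count in primary tumours and 14.0% to 16.7% in lung metastases, without overlap. Klf6 held 30.1% to 39.6% and 29.6% to 37.6%, and Klf10 12.9% to 20.6% and 3.82% to 14.0%. The 3.82% was lung metastasis 3, and the other 3 lung metastases held 12.6% to 14.0% as Klf10. These shares depend on each other, since they sum to the whole.

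Within-library ratios compare 2 genes, or a gene with the mean of endothelial markers. They were taken on the log2(value + 1) scale, so the scaling between libraries cancels only in part, least for low values. The 5 ratios were tested with two-sided exact permutation tests of 4 against 4 libraries, whose smallest possible p is 0.0286. The log2 ratio of Klf4 to Klf5, the pair of opposed roles, was 0.57 ± 0.308 in primary tumours and 1.59 ± 0.616 in lung metastases (SD, n = 4). It was higher in the metastasis of 4 of 4 mice, with a difference of 1.02 (exact permutation p = 0.0571, adjusted over the 5 ratios 0.143). The ratio of Klf2 to Klf4 was likewise higher in 4 of 4 mice, 0.58 ± 0.476 against 1.28 ± 0.391, a difference of 0.70 (exact permutation p = 0.0571, adjusted 0.143). The close paralogs Klf9 and Klf13 had a ratio of -1.83 ± 0.758 and -1.47 ± 0.173, higher in 3 of 4 mice (exact permutation p = 0.429, adjusted 0.6). No ratio passed the threshold.

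**Figure D3:**
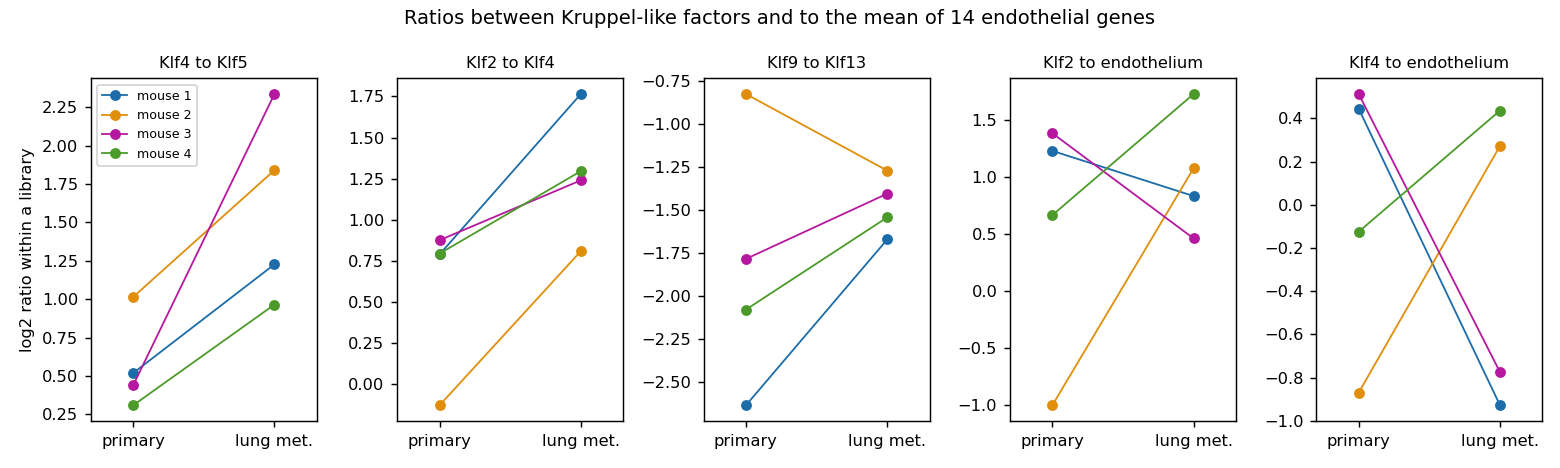
Log2 ratios within a library for Klf4 to Klf5, Klf2 to Klf4, Klf9 to Klf13, and Klf2 and Klf4 to the mean log2 value of 14 endothelial genes (vertical axes, each panel on its own scale), with a line joining the primary tumour and lung metastasis of a mouse. The first 2 ratios are higher in the metastasis of all 4 mice, while both ratios to endothelium are higher in 2 and lower in 2.

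Markers of cell types differed between the groups in some lists and not in others. Beside the counts of these lists and of those further below stand 7.18% of all genes tested called higher and 1.96% lower, with a median change of -0.06. Of 14 endothelial markers 6 were called higher and 0 lower, and their summed level was 314 to 1115 in primary tumours and 770.4 to 3755 in lung metastases. The higher count was 7 without lung metastasis 3, 4 without mouse 3, 4 with edgeR and 7 with DESeq2. Their median change was 1.24, and 0.84 without lung metastasis 3 and 0.75 without mouse 3. None of the 14 was at 0 in a whole group. The defining endothelial genes Pecam1 and Cdh5, which encode junction proteins, were not called (log2 changes 0.96 and 0.95, limma adjusted p 0.355 and 0.337). The log2 ratio of Klf2 to the mean of these markers was 0.57 ± 1.09 in primary tumours and 1.03 ± 0.533 in lung metastases, higher in 2 of 4 mice (exact permutation p = 0.6, adjusted 0.6). For Klf4 it was -0.01 ± 0.641 and -0.25 ± 0.703, also higher in 2 of 4 (exact permutation p = 0.6, adjusted 0.6). Primary tumour 2 had the highest summed endothelial level of the primary tumours and the lowest Klf2, and without it the difference for Klf2 was -0.07.

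Lung epithelial and neutrophil markers were nearly all called higher. Of 13 lung epithelial markers 12 were called higher, with sums of 15.5 to 43.1 in primary tumours and 7589 to 35372 in lung metastases, and none was at 0 in a whole group, although 7 stayed below 1 in every primary tumour and so entered the test only through the lung metastases. Of 9 neutrophil markers 8 were called higher (193 to 1132 against 7366 to 27786). Sftpc, the surfactant gene of alveolar type 2 cells, and Ager, of alveolar type 1 cells, changed by 10.95 and 7.18 (limma adjusted p 1.63e-08 and 4.11e-07). Ly6g, a neutrophil surface marker, and Camp, a granule protein gene, changed by 4.97 and 5.82 (limma adjusted p 0.000226 and 6.48e-05). Ly6g stood at 0 to 1.26 in primary tumours, on 47 reads in all, so it too entered the test only through the lung metastases. The size of its change depends on the processing, at 3.12 to 7.10 in the other settings. The sums of both lists were highest in lung metastasis 3, as were 7 of the 9 members. Of 6 T cell markers 1 was called higher (2.63 to 13.4 against 18.4 to 51.1), namely the T cell receptor complex gene Cd3d (log2 change 1.89), while Cd3e was not called (0.88). Of 7 macrophage markers with values 6 were tested and 0 were called in either direction, with changes of -0.59 for Csf1r and -0.35 for Emr1. The sums over all 7 were 797 to 1786 against 539 to 1100.

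Of 9 smooth muscle and pericyte markers 2 were called higher and 1 lower (sums 167 to 416 against 173 to 433). The higher count was 1 without lung metastasis 3, 0 without mouse 3, 1 with edgeR and 3 with DESeq2. The pericyte gene Rgs5 fell from 78.7 ± 46.9 to 3.73 ± 1.11 (SD, n = 4, log2 change -3.94, limma adjusted p = 0.000169), and the smooth muscle myosin gene Myh11 was not called (1.27). In the simple epithelial list of the tumour 1 of 6 was called higher (1307 to 2636 against 783 to 3038), and the keratin genes Krt8 and Krt18 were not called (-0.59 and -0.76). Of 5 erythroid markers with values 3 were tested and all 3 were called higher. Of 4 B cell markers with values only 1 was tested, and it was called higher. The B cell sum was 0.881 to 1.26 in primary tumours and 5.59 to 19.8 in lung metastases, so that marker entered the test through the lung metastases. Of those tested, 1 of 6 fibroblast and 0 of 3 keratinocyte markers were called higher, and 1 of 2 adipocyte markers was called lower. The part of these cell types in the changes of Klf2 and Klf4 was not tested.

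Beside 7.18% of all genes called higher, 1 of 9 other KLF and SP family genes tested was called, Klf15. It was below 1 in every primary tumour, so it entered the test only through the lung metastases, where it is high. Klf15, a factor of metabolic and glucocorticoid responses, stood at 0, 0.355, 0.742 and 0.141 in primary tumours 1 to 4, on 35 reads in all, and at 11.8, 7.40, 48.3 and 4.33 in the lung metastases. All metastases were above all primary tumours, with the highest again in mouse 3. The means were 0.309 ± 0.323 and 18.0 ± 20.5 (SD, n = 4), with a log2 change of 3.34 (SE 0.596, limma adjusted p = 0.00609). The size of that change depends on the processing, at 1.76 with a pseudocount of 5, 5.25 with a pseudocount of 0.1, 5.86 with edgeR and 5.93 with DESeq2. Without lung metastasis 3 the lung mean was 7.84 ± 3.75 and the change 2.70 (limma adjusted p = 0.00100). With a minimum value of 5 in 4 libraries it was not tested, and in the alternatives that tested it, it was called. The other 8 were Klf8, Klf11, Klf12, Klf16, Sp1, Sp2, Sp3 and Sp4, with log2 changes of -0.26 (Klf8) to 0.96 (Klf12) and limma adjusted p of 0.193 to 0.964. The 9 changes of this list had a median of 0.33. Sp2 and Sp3 overlap genes on the opposite strand.

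**Figure D4:**
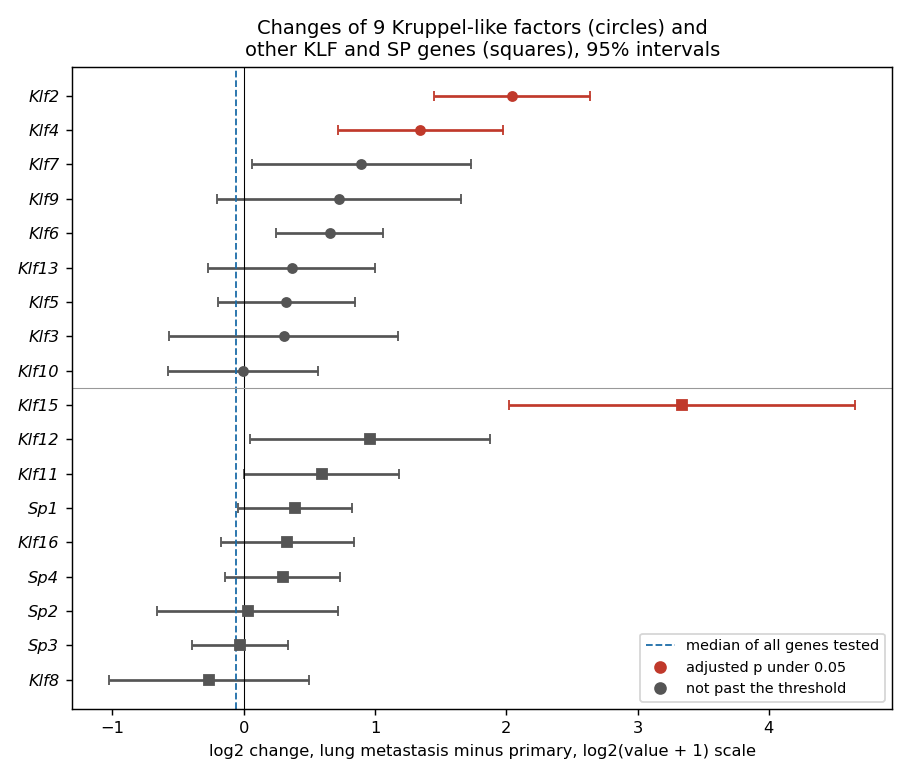
Log2 change from primary tumour to lung metastasis (horizontal axis, log2(value + 1) scale) with 95% intervals from limma for the 9 members (circles) and 9 other KLF and SP genes (squares), red where the adjusted p is under 0.05. Klf2, Klf4 and Klf15 are called at 2.04, 1.35 and 3.34, and the dashed line marks the median of all genes tested at -0.06.

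The list that joins the MEKK3, ERK5 and MEF2 pathway with the CCM complex had 1 of 12 genes called higher and 0 lower. Its median change was -0.14 (-0.06 without lung metastasis 3), taken over genes of both, so it does not measure the inducing pathway alone. The called gene was Heg1, the receptor of the CCM complex, at 55.8 ± 17.2 in primary tumours and 226 ± 120 in lung metastases (log2 change 1.92, limma adjusted p = 0.00445). The kinase and MEF2 genes Map3k3, Mapk7, Mef2a, Mef2c and Mef2d were not called. Among cofactors and ubiquitin ligases that act on KLF proteins, 0 of 17 were called higher and 1 lower, with a median of -0.21 (-0.04 without lung metastasis 3). Kat2b, a histone acetyltransferase gene, just missed the threshold (log2 change 0.62, limma adjusted p = 0.0506) and was called higher by DESeq2. Its paralog Kat2a stood at 88.8 ± 12.1 against 55.0 ± 8.42 (log2 change -0.68, limma adjusted p = 0.0339, and 0.0606 when blocked on the mouse). That call also ended without primary tumour 2, 3 or 4 or lung metastasis 1 or 4 (0.0534 to 0.11).

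Known KLF2 target genes of endothelium and of lymphocytes rose in part, in small lists that share cell types with the markers above. Of 7 endothelial targets tested 3 were called higher and 0 lower, with a median of 1.25. The list as drawn up mixes genes known to be raised by these factors with genes known to be lowered, such as Edn1 and Vcam1. Its count and median therefore do not measure the activity of KLF2 or KLF4. Thbd, which encodes the anticoagulant thrombomodulin, stood at 7.59, 12.7, 6.47 and 5.18 in primary tumours and 126, 114, 442 and 103 in lung metastases (log2 change 4.23, limma adjusted p = 0.000314). The angiopoietin receptor gene Tek, which is also among the endothelial markers, changed by 3.45 and the water channel gene Aqp1 by 1.99 (limma adjusted p 0.00168 and 0.00336). Without lung metastasis 3 the lung means were 114 ± 11.8 for Thbd and 57.1 ± 17.5 for Tek, and both were called (limma adjusted p 1.4e-05 and 0.000483). Nos3, the nitric oxide synthase known as a target of KLF2, stood at 5.75 ± 4.09 and 4.25 ± 2.50 and was not called (limma adjusted p = 0.873). Of the 5 lymphocyte targets 3 were called higher, with a median of 1.83. The integrin gene Itgb7 stood at 8.65 ± 4.91 against 33.4 ± 12.3 (log2 change 1.88, limma adjusted p = 0.0100). S1pr1, the sphingosine phosphate receptor of lymphocyte egress and endothelium, changed by 1.83 (limma adjusted p = 0.0325), a call lost with edgeR (adjusted p = 0.0741) and without primary tumour 1, 3 or 4 or lung metastasis 1 or 2 (0.063 to 0.11). The S1pr1 call was also lost without both libraries of mouse 3 (limma adjusted p = 0.0842). Its groups overlapped, with primary tumour 2 at 63.9 and lung metastasis 4 at 57.3.

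Immediate early genes, the class to which several Kruppel-like factors belong, were called higher in 7 of 13 cases and lower in 0, with a median of 0.95. Over all genes tested 7.18% were called higher and 1.96% lower. Btg2, an antiproliferative gene, stood at 19.7 ± 9.58 against 168 ± 88.8 (log2 change 3.01, limma adjusted p = 0.000609) and Zfp36, which promotes decay of cytokine messages, at 37.0 ± 7.79 against 206 ± 111 (2.33, limma adjusted p = 0.00112). Fos, a subunit of AP-1, and Dusp1, a phosphatase gene of MAP kinases, changed by 2.53 and 2.89 (limma adjusted p 0.00744 and 0.0120), the latter call lost with edgeR (0.0527). Without primary tumour 3 or 4 the list had 4 called genes. Junb and Ier2 of the same list had changes of -0.05 and 0.04. In the glucocorticoid list 4 of 9 were called higher and 1 lower, with a median of 0.84 (0.46 without lung metastasis 3). They were Cebpd, a C/EBP factor (29.3 ± 7.17 against 132 ± 47.0), Tsc22d3, which encodes GILZ (93.4 ± 16.5 against 332 ± 163), the receptor gene Nr3c1 (73.8 ± 5.45 against 134 ± 25.4) and Zbtb16. Zbtb16 stood at 3.95, 7.68, 147 and 5.08 in lung metastases 1 to 4, so its mean rests on mouse 3, and its primary tumours held 0 to 0.238, so it too entered the test only through the lung metastases. Its call (limma adjusted p = 0.0302) ended with a pseudocount of 5 (0.147) and without any 1 primary tumour or lung metastasis 2 (0.0529 to 0.0901). Fkbp5, another glucocorticoid target, was called lower at 198 ± 23.9 against 133 ± 13.4 (log2 change -0.57, limma adjusted p = 0.0452), a call lost when blocked on the mouse (0.0929) and in several other settings (up to 0.161).

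In the TGF-beta list, which holds the pathway that induces Klf10, 0 of 13 were called higher and 3 lower, with a median of -0.36. The list mixes ligands, receptors and SMADs with genes that restrain the pathway, such as Skil and Tgif1. Its count and median therefore do not measure the activity of TGF-beta signalling. Skil, which encodes the SMAD inhibitor SnoN, fell from 307 ± 66.3 to 160 ± 25.0 (log2 change -0.91, limma adjusted p = 0.0202, and 0.0584 when blocked on the mouse). Tgif1, a corepressor of SMADs, fell from 115 ± 13.6 to 51.5 ± 19.6 (-1.25, limma adjusted p = 0.0282) and the ligand gene Tgfb3 from 101 ± 22.2 to 56.4 ± 8.53 (-0.82, limma adjusted p = 0.0308). Each of the 3 calls ended when some single libraries were left out: Skil without primary tumour 1, 3 or 4 or lung metastasis 1, Tgif1 without any 1 primary tumour, and Tgfb3 without primary tumour 2, 3 or 4 or lung metastasis 1 (0.0577 to 0.106).

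**Figure D5:**
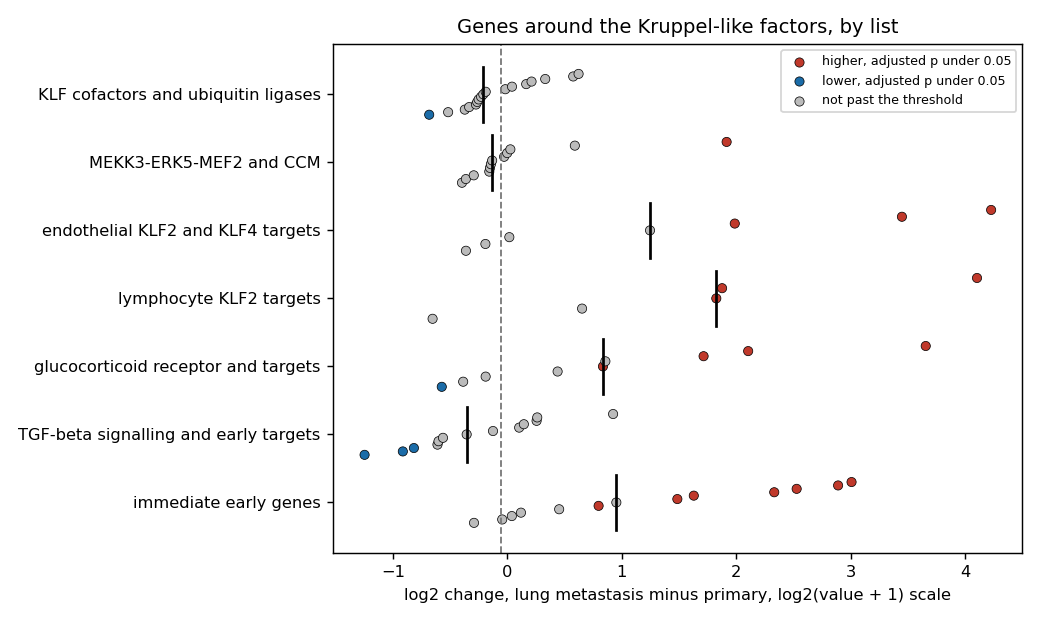
Log2 change from primary tumour to lung metastasis (horizontal axis, log2(value + 1) scale) of each tested gene in 7 lists around the Kruppel-like factors, red where called higher, blue where called lower and grey otherwise, with a black bar at the list median and a dashed line at the median of all genes. Immediate early genes hold 7 red points and the TGF-beta list 3 blue points.

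The genes most like the called members across the 8 libraries were found by the root mean square difference of mean-centred log2 values, among 11547 genes with a mean of at least 5. For Klf2 these were Sqrdl, a mitochondrial sulfide oxidoreductase gene (0.229), Pard3b, a cell polarity gene (0.262), and Mxra7 (0.267). For Klf4 they were Anubl1 (0.225), Sord, the sorbitol dehydrogenase gene (0.261), and Sik1, a salt-inducible kinase gene (0.262). Among the members themselves the most alike were Klf3 and Klf13, at 0.214. These distances are descriptions, and the 8 libraries share the group difference and the high values of lung metastasis 3.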

How the data were processed

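Bulk RNA sequencing of 20 libraries in 5 groups of 4 forms 1 table, and the 8 BC libraries were analysed. The values the authors deposited are a signal, the reads of a gene over a library's scaled size, and the submitters' processing notes name the mm9 build. For the aligner, counter and annotation: not given in the sources used here. All values of these columns were whole multiples of 1 read (tolerance 0.05 reads, 100% of values), which recovered the reads. The design had assumed plain normalised values, and the column totals over the named genes were 962401 to 1044330.

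The 14003 genes that reached 1 in 4 or more libraries were tested with limma 3.58.1 with an intensity trend on log2(value + 1), a scale that understates changes of low genes, without a mouse term. Alternatives were pseudocounts, filters, scalings, array weights, the mouse as a block, edgeR 4.0.16 and DESeq2 1.42.0 on recovered reads (edgeR called 1050 genes and DESeq2 1985, limma 1279), and leaving out each library. Scripts were tested on simulated data. P-values of the main fit set a difference against the spread among the 4 libraries within a group, moderated by limma over all genes. They do not measure the spread of the change within mice, and the permutation tests of ratios do not use the pairing either. Only the blocked fit does. Titles give the mouse of each library, so same-numbered libraries come from the same animal. Their deviations from group means correlated at -0.151 to 0.0962.

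The members and lists were chosen with earlier results of these data known. Of 199 list entries 15 were absent from the rows used. Named were the members, up to 4 called genes of smallest p per list (or the 2 of smallest p), the first 2 genes of marker lists described beyond their counts and 3 nearest profiles per called member. A called gene of the lymphocyte list is not reported here. Named outside that rule, after their values were seen, were uncalled or further genes given for contrast (such as Nos3, Junb, Kat2b, Fkbp5 and the kinase and MEF2 genes).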

Additional observations from a re-analysis of the deposited data

Results flagged for a closer look

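Among 46 groups of 4 values (the members, the other family genes and the 5 ratios), 6 held a library far from the other 3, and chance flags about 1 in 20 such groups. Lung metastasis 3 was that library in 4 of the 6, with high values of Klf2 (274), Klf7 (114), Klf8 (2.23) and Klf15 (48.3). Sp2 was low in primary tumour 4, at 9.55. The log2 ratio of Klf2 to Klf4 was low in primary tumour 2, at -0.13.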

How the results depend on the processing

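Of all genes, 1005 were called higher and 274 lower. The count of higher genes was 644 with a minimum value of 5 and 1536 with array weights, and 627 to 1237 when 1 library was left out, lowest without primary tumour 4. The count of lower genes was 747 with array weights and 517 with DESeq2, and when 1 library was left out 141 (primary tumour 1), 122 (primary tumour 3), 84 (primary tumour 4), 142 (lung metastasis 1) and 431 (lung metastasis 3), 84 to 431 in all. Fitted with the mouse as a block, 176 genes were lower, and the cofactor and glucocorticoid lists each had 0 genes lower in place of 1. Between 1 and 3 members were called higher when 1 library was left out. With a minimum value of 5, Klf15 was not tested, so 0 other family genes were called, and the glucocorticoid list had 0 lower. That list also had 0 lower with median-ratio scaling, with edgeR, without mouse 3 and in 6 of the 8 fits without 1 library (0 to 1 in all). Cofactors had 1 gene higher, Kat2b, with median-ratio scaling, TMM scaling, array weights and DESeq2 (0 to 1 without 1 library), and 0 lower without mouse 3 (0 to 1 without 1 library). The TGF-beta list had 6 lower with array weights and 0 to 5 without 1 library, and immediate early genes 4 to 7 higher.

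Some log2 changes turned sign. Klf3 was at -0.13 without lung metastasis 3 and -0.061 without mouse 3. Klf10 was at 0.032 with median-ratio scaling, 0.0051 with TMM scaling, 0.21 with array weights, 0.039 with edgeR, 0.058 with DESeq2, 0.022 without primary tumour 1, 0.13 without primary tumour 3, 0.24 without lung metastasis 3 and 0.37 without mouse 3. Pdgfra, a fibroblast marker, was at -0.031 without mouse 3, Krt14, a keratinocyte marker, at -0.044 without lung metastasis 4, and the ratio of Klf2 to endothelium at -0.068 without primary tumour 2. The cause was not tested. Leaving out mouse 3 was added after seeing the data. The median over all genes was -0.06 as deposited, -0.02 with median-ratio and -0.04 with TMM scaling. With 3 libraries against 4 no ratio can reach an exact permutation p below 0.0571. Depth limits Klf15, Zbtb16 and Ly6g, which rest on 35, 12 and 47 reads in primary tumours.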
